A study of Mus musculus with 2 samples.

Results

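The genes described here encode the nucleation-promoting factors of the WASP and WAVE families and the partners they work with, the proteins that switch on the Arp2/3 complex. They are defined by a list of symbols, by a rule that sets no limit on any measured value, and 9 of the 32285 genes in the count tables belong to them: Was, Wasl and Wipf1 of the WASP branch, and Wasf2, Cyfip1, Nckap1l, Abi1, Abi3 and Brk1 of the WAVE complex. The study deleted Arpc4, a subunit of the Arp2/3 complex, in brain myeloid cells and sequenced the RNA of single CD45+ cells sorted from the brains of 12-week-old mice. Control mice were Cre-negative Arpc4 fl/fl littermates (n = 4, all male per the study). Arpc4dCx3cr1 mice carried Tg(Cx3cr1-Cre) with Arpc4 fl/fl (n = 4, of which 3 were male and 1 was female per the study). Both groups therefore carried floxed Arpc4 alleles and only the knockout group carried Cre, which was driven by the Cx3cr1 promoter and deletes in brain myeloid cells, including but not limited to microglia. The cells of each mouse were tagged with an oligonucleotide before all mice were pooled.

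The Arp2/3 complex builds branched actin filaments and is inactive until a nucleation-promoting factor binds it. WASP, which is made in blood-derived cells, and N-WASP, which is made in most cells, respond to Cdc42 and are held and stabilised by the WASP-interacting protein WIP. WAVE proteins act downstream of Rac within a complex of a Cyfip, a Nap1 or Hem1, an Abi and the small subunit HSPC300, which drives lamellipodia and ruffles, and both systems are known for their part in the migration, process movement and phagocytosis of macrophages.

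After filtering, 19863 of 19864 cells remained, no barcode was shared between mice, and each mouse held between 5251527 and 12878691 UMIs (unique molecular identifiers, 1 per captured RNA molecule) on genes. Clusters were named from marker genes, and 11 of 19 clusters were microglia-like, with 7782 control and 9240 Arpc4dCx3cr1 cells. CAM-like cells (macrophages at the borders of the central nervous system) numbered 283 in control and 123 in Arpc4dCx3cr1 mice, and monocyte-like cells numbered 115 and 232, of which the knockout mouse 1 gave 114. The monocyte-like cluster also had 4 of 7 dendritic cell markers, with Cd209a, H2-Aa and H2-Eb1 among its leading genes. T cell-like cells numbered 133 and 175, in a cluster that also had all 7 markers of NK cells. Proliferating-like cells numbered 52 and 58, in a cluster led by the granulocyte precursor genes Elane, Prtn3 and Mpo. That cluster also had 8 of 10 microglia markers. Its cells had a median of 1.33% (control) and 1.06% (knockout) of UMIs on these markers, against 2.27% and 1.09% in microglia-like cells. The 10 microglia markers together fell from a range of 22213 to 22543 CPM (UMIs of a gene per 1000000 UMIs of the same cells) in control microglia-like cells to one of 8742 to 12584 CPM in Arpc4dCx3cr1 mice, and the part of this shift in the values of the WASP and WAVE genes was not tested. Xist stood at 1443 CPM in the microglia-like cells of knockout mouse 1 and between 3.56 and 13.8 CPM in the other 7 mice. Without that mouse, 5 of the 9 genes were still lower and 1 was still higher in Arpc4dCx3cr1 microglia-like cells, as with it.

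Arpc4 itself (chr6:113378115-113390448, GRCm38, plus strand) was read first as a check of the labels. In microglia-like cells it stood at 236, 216, 225 and 222 CPM in control mice 1 to 4 and at 153, 148, 143 and 138 CPM in Arpc4dCx3cr1 mice 1 to 4. The groups did not overlap, and Arpc4 fell by 0.63 on the log2 scale (SE 0.05, adjusted p = 5.73e-06, quasi-likelihood test of edgeR, adjusted by the Benjamini-Hochberg method over all genes). Ttll3, which overlaps Arpc4 on the same strand by 1189 bases, rose (19.96 against 33.5 plain CPM, log2 0.84, adjusted p = 0.000621, edgeR's quasi-likelihood test). Reads of their shared stretch cannot be told apart. Tags were read from the 3′ end of transcripts and the deleted exons are not given in the sources used here, so the remaining Arpc4 UMIs do not measure intact transcript. Brk1 begins 214323 bases beyond the end of Arpc4 on the same chromosome.

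The first comparison asked how the activators of the Arp2/3 complex were expressed in microglia-like cells that lacked ARPC4. UMIs were summed per mouse over all microglia-like cells and scaled to CPM with the TMM method, a correction for differences in RNA composition. CPM values over all microglia-like cells in this comparison, and those of Arpc4 above, are on that scale, except those of overlapping genes. The values of Ttll3, Gm13708, Zfp652 and Gngt2 are plain CPM without TMM scaling and need not match the log2 values beside them. Of the 9 genes, 5 were lower (Was, Wasf2, Cyfip1, Nckap1l and Abi3) and 1 was higher (Wipf1) in Arpc4dCx3cr1 mice, while Wasl, Abi1 and Brk1 did not pass the test. Across all 12726 genes tested, 23.2% were lower and 22.9% were higher, so that 46% of all genes differed, and the median log2 fold change was -0.27 over the 9 genes and -0.01 over all genes. Levels of different genes are not compared here, since the counts come from transcript ends. The plot of CPM per mouse sets the 9 genes side by side.

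**Figure D1:**
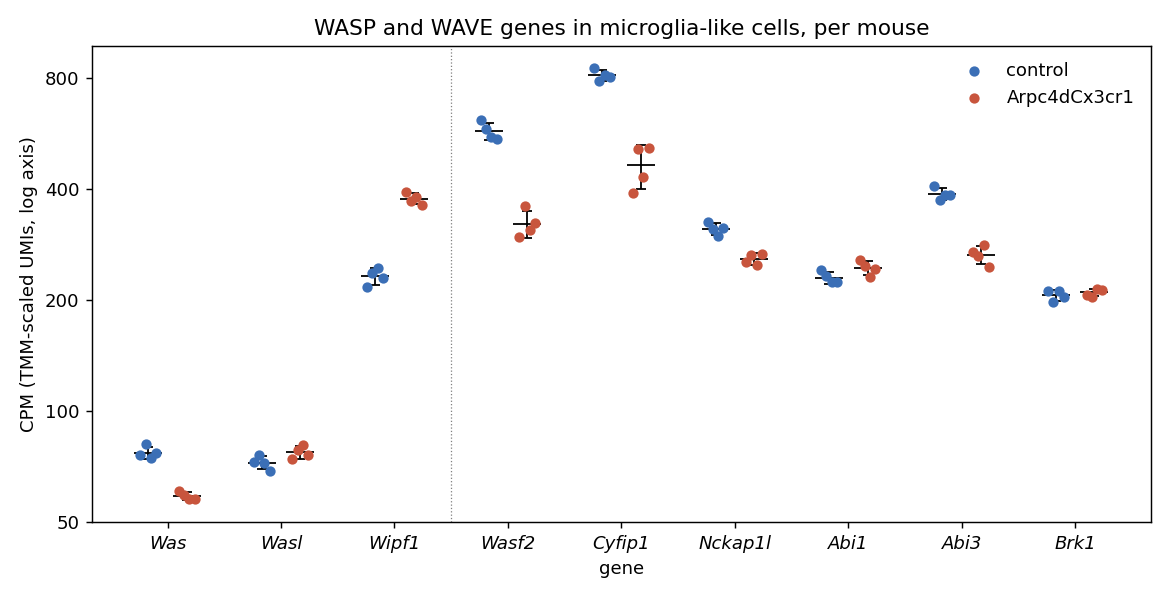
Level of each of the 9 genes in microglia-like cells, in CPM with TMM scaling (vertical axis), for each of 4 control and 4 Arpc4dCx3cr1 mice (points) with the group mean and SD. The groups did not overlap for Was, Wasf2, Cyfip1, Nckap1l and Abi3, which were lower in the knockout, nor for Wipf1, which was higher, and they overlapped for Wasl, Abi1 and Brk1.

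Within the WASP branch the members moved in opposite directions. Promoters of 3 genes are shown because their genes carry the result, the WASP gene that fell, the WIP gene that rose and the WAVE gene that fell. Each line holds the 250 bases before the RefSeq transcription start (build GRCm38.p6), 5′ to 3′ on the strand of the gene. AGGAAG, a form of the ETS-family site, and the GC box GGGCGG are in capitals on either strand. Other forms of the ETS-family site were not searched. The Was window is chrX:8090492-8090741 on the minus strand, that of Wipf1 is chr2:73529488-73529737 on the minus strand (the outermost of its RefSeq starts), and that of Wasf2 is chr4:133130383-133130632 on the plus strand.
Was: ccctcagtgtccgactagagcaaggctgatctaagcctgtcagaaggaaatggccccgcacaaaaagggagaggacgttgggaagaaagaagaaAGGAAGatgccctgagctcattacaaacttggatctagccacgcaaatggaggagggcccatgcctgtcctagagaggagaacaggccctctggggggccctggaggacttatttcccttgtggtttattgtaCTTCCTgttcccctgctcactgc
Wipf1: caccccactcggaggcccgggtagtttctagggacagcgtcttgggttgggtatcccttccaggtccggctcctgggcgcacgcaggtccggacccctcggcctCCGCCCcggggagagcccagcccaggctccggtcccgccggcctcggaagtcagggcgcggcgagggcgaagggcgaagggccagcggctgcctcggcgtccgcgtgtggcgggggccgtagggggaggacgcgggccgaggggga
Wasf2: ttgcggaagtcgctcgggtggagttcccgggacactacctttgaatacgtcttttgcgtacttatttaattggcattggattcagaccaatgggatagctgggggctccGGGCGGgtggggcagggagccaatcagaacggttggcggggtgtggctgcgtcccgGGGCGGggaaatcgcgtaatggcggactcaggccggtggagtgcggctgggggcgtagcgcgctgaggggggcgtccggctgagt
The Was window held 2 AGGAAG matches and 0 of GGGCGG, that of Wasf2 held 0 and 2, and that of Wipf1 held 0 and 1. The windows of the other 2 Wipf1 starts, not printed, held 3 AGGAAG matches each and 0 of GGGCGG, so the count for Wipf1 depends on the start taken. Over all 32851 promoter windows in the table, 29.5% held AGGAAG and 32.7% held GGGCGG, so neither match sets these genes apart. RefSeq promoters were matched for 6 of the 9 genes.

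Was, the gene of WASP (chrX:8081453-8090498, minus strand), stood at 76.0, 81.3, 74.4 and 77.0 CPM in control mice and at 60.9, 59.1, 58.0 and 57.8 CPM in Arpc4dCx3cr1 mice. All knockout mice lay below all controls. Was fell by 0.39 on the log2 scale (SE 0.05, adjusted p = 7.87e-05), and without the knockout mouse with Xist counts it fell by 0.40 (adjusted p = 3.08e-05, edgeR's quasi-likelihood test in both). The level of Wasl, the gene of N-WASP (chr6:24613805-24665009, minus strand), ranged from 68.9 to 76.0 CPM in controls and from 74.1 to 81.1 CPM in the knockout. The ranges overlapped, and the log2 difference of 0.09 (95% interval -0.02 to 0.21, adjusted p = 0.166) did not pass the test.

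Wipf1, which encodes WIP, the chaperone and partner of WASP and N-WASP (chr2:73429610-73529734, minus strand), stood at 217, 236, 244 and 230 CPM in control mice. In Arpc4dCx3cr1 mice it stood at 392, 372, 380 and 361 CPM, and every knockout mouse was above every control. Wipf1 was the only one of the 9 genes to rise, by 0.70 on the log2 scale or 1.62-fold (SE 0.05, adjusted p = 2.72e-06, edgeR's quasi-likelihood test), and the log2 value lay between 0.63 and 0.74 in all 19 alternative settings. Within each mouse, the UMIs of Wipf1 per UMI of Was were 2.85 to 3.28 in controls and 6.24 to 6.55 in Arpc4dCx3cr1 mice. The two-sided exact permutation test gave p = 0.0286, as low as 4 against 4 mice can reach. The levels of both genes already separated in opposite directions, so this p was fixed by them and the ratio is a description. An antisense gene that overlaps Wipf1, Gm13708, also rose (11.96 against 16.5 CPM, log2 0.57, adjusted p = 0.000992), and reads of these genes cannot be told apart here, since the use of strand in counting is not given in the sources used here.

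In the WAVE complex, the subunit that activates Arp2/3 and its Rac-binding partner fell by similar amounts, and their order turned in the fits without control mouse 2 or knockout mouse 4. Wasf2, the gene of WAVE2, which carries the domain that binds the Arp2/3 complex (chr4:133130505-133199756, plus strand), stood at 615, 581, 553 and 544 CPM in control mice. In Arpc4dCx3cr1 mice it stood at 296, 359, 309 and 324 CPM. The groups were far apart relative to their spread, with means of 573 ± 31.7 and 322 ± 27.0 CPM (SD, n = 4 each), and Wasf2 fell by 0.83 on the log2 scale (SE 0.07, adjusted p = 4.25e-06, edgeR's quasi-likelihood test).

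Cyfip1, the subunit that binds active Rac and releases the WAVE complex from inhibition (chr7:55841745-55932602, plus strand), stood at 853, 783, 812 and 805 CPM in control mice. The values in Arpc4dCx3cr1 mice were 390, 514, 432 and 516 CPM, more spread than in controls but all lower. Cyfip1 fell by 0.81 on the log2 scale (SE 0.09, adjusted p = 2.88e-05, edgeR's quasi-likelihood test). Nipa2 lies antisense to Cyfip1 in part and did not pass the test (log2 -0.11, adjusted p = 0.396).

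Abi3, an Abi subunit (chr11:95830074-95842476, minus strand), stood at 406, 372, 386 and 386 CPM in control mice and at 270, 263, 281 and 246 CPM in Arpc4dCx3cr1 mice. The groups did not overlap, and Abi3 fell by 0.55 on the log2 scale (SE 0.06, adjusted p = 1.96e-05). Zfp652, which overlaps Abi3 on the opposite strand, fell as well (358 against 243 CPM, log2 -0.45, adjusted p = 0.000743, edgeR's quasi-likelihood test here and for the next value), whereas Gngt2, which overlaps Abi3 on that strand over 5261 bases against 5042 for Zfp652, did not pass the test (247 against 219 CPM, log2 -0.07, adjusted p = 0.351). Without the strand the reads of overlapping genes cannot be told apart. Nckap1l, the blood-cell subunit Hem1 (chr15:103453794-103498810, plus strand), stood at 326, 311, 298 and 314 CPM in controls and at 254, 265, 248 and 267 CPM in the knockout. Its groups did not overlap either, but the fall was smaller, 0.27 on the log2 scale (SE 0.05, adjusted p = 0.00131, edgeR's quasi-likelihood test).

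Abi1 and Brk1 did not pass the test. The level of Abi1, another Abi subunit (chr2:22940073-23040241, minus strand), ranged from 223 to 241 CPM in control mice and from 230 to 257 CPM in Arpc4dCx3cr1 mice, with a log2 difference of 0.09 (95% interval -0.03 to 0.21, adjusted p = 0.2). Brk1, the gene of HSPC300 (chr6:113604772-113616951, plus strand), ranged from 197 to 211 CPM and from 204 to 214 CPM, with a log2 difference of 0.03 (95% interval -0.08 to 0.13, adjusted p = 0.684, edgeR's quasi-likelihood test for both). Set against Brk1 in the same mice, UMIs per Brk1 UMI fell from a mean of 2.79 to 1.54 for Wasf2, from 3.95 to 2.21 for Cyfip1, from 1.88 to 1.26 for Abi3 and from 1.52 to 1.23 for Nckap1l (exact permutation p = 0.0286 for each, the smallest possible, n = 4 and 4). The same ratio was 1.12 and 1.17 for Abi1 (exact permutation p = 0.343). These ratios restate the levels above, set against a gene that did not pass the test, and are no separate evidence. The subunits of the WAVE complex therefore did not change by 1 common factor. Transcript abundance of these genes was measured, and that of the assembled complex was not.

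Shares of UMIs within gene families showed the same shifts inside each mouse, a test that was added after the data had been seen. Was made up 51.6% ± 0.91 of Was plus Wasl UMIs in control mice and 43.2% ± 1.41 in Arpc4dCx3cr1 mice (SD, n = 4 each). Abi3 made up 58.9% ± 0.78 of the UMIs of the 3 Abi genes in controls and 48.6% ± 1.81 in the knockout, while Abi1 went from 35.0% to 44.9%. Thus Abi3 gave most of the Abi UMIs in every control mouse (57.8% to 59.6%) and 46.5% to 50.9% in the knockout. Each of these shares reached the smallest p that 4 against 4 mice allow (exact permutation p = 0.0286, 0.04 after Benjamini-Hochberg adjustment over 7 shares). The levels of Was and Abi3 had already separated between genotypes, and the Abi1 and Abi3 shares are parts of the same sum. These shares therefore restate the levels above and are no separate evidence. Wasf2 made up 99.9% of the WAVE gene UMIs in both genotypes (exact permutation p = 0.343) and Nckap1l 99.3% of those of the Nap1 and Hem1 genes (p = 0.857, exact permutation). In these cells the other WAVE genes were close to the limit of detection, with 18 UMIs of Wasf1 and 11 of Wasf3 over all 8 mice. Shares of UMIs read from transcript ends are shares of captured tags, and capture can differ between genes.

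Microglia-like cells fell into clusters that differed by genotype, so the genes were also read cluster by cluster. Only cluster 0 (led by Ctnna3, Tafa1 and Grik2) and cluster 12 (led by Ccl4, Ccl3 and Spp1) had 3 or more mice of each genotype with at least 10 cells each, and these values, in plain CPM, are given without a test. Cluster 0 held 85 control and 3196 knockout cells, and cluster 12 held 112 and 263. In cluster 0, Wasf2 stood at 498, 450, 469 and 484 CPM in control mice and at 371, 353, 321 and 352 CPM in Arpc4dCx3cr1 mice. Cyfip1 there ranged from 621 to 774 CPM in controls and from 437 to 538 CPM in the knockout, so that neither gene overlapped between genotypes within this cluster. Wipf1 did overlap in cluster 0, with 379 to 498 CPM in controls and 406 to 502 CPM in the knockout. Was overlapped there too (47.4 to 55.7 against 36.1 to 56.3 CPM), as did Nckap1l (295 to 395 against 271 to 355 CPM). Abi3 ranged from 286 to 371 CPM in controls and from 259 to 286 CPM in the knockout, with the lowest control just below the highest knockout mouse.

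In cluster 12, Abi3 ranged from 206 to 294 CPM in control mice and from 123 to 163 CPM in Arpc4dCx3cr1 mice. Cyfip1 ranged from 665 to 918 CPM and from 469 to 538 CPM. These ranges did not overlap, whereas those of Wasf2 did (224 to 469 against 216 to 247 CPM). Those of Wipf1 (188 to 316 against 277 to 348 CPM) and Was (46.4 to 87.2 against 34.3 to 56.1 CPM) overlapped too. So did those of Nckap1l (195 to 211 against 172 to 201 CPM). Cells were assigned to clusters by genes that also differ between genotypes, and no comparison was made over the other clusters.

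Levels varied as much among the clusters of 1 genotype as between genotypes for some of the genes. Among clusters made mostly of control cells, Wipf1 was lower in cluster 2 (led by Crybb1, Ecscr and Ltc4s, 129 to 160 CPM over 4 control mice) than in cluster 1 (led by Csmd3, Nav2 and Bank1, 275 to 297 CPM). Among clusters of Arpc4dCx3cr1 cells, Wipf1 ranged from 67.3 to 97.3 CPM in cluster 9 (led by Cst7, Spp1 and Cox6a2) and from 406 to 502 CPM in cluster 0. In cluster 9 the 2 control mice with enough cells were at 53.3 and 53.5 CPM, below the knockout mice. Abi3 in the knockout was low in cluster 12 and in cluster 6 (led by haemoglobin genes and Ms4a7, 146 to 161 CPM), and Wasf2 was low in cluster 9 (132 to 247 CPM). The plot by cluster shows 4 of the genes.

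**Figure D2:**
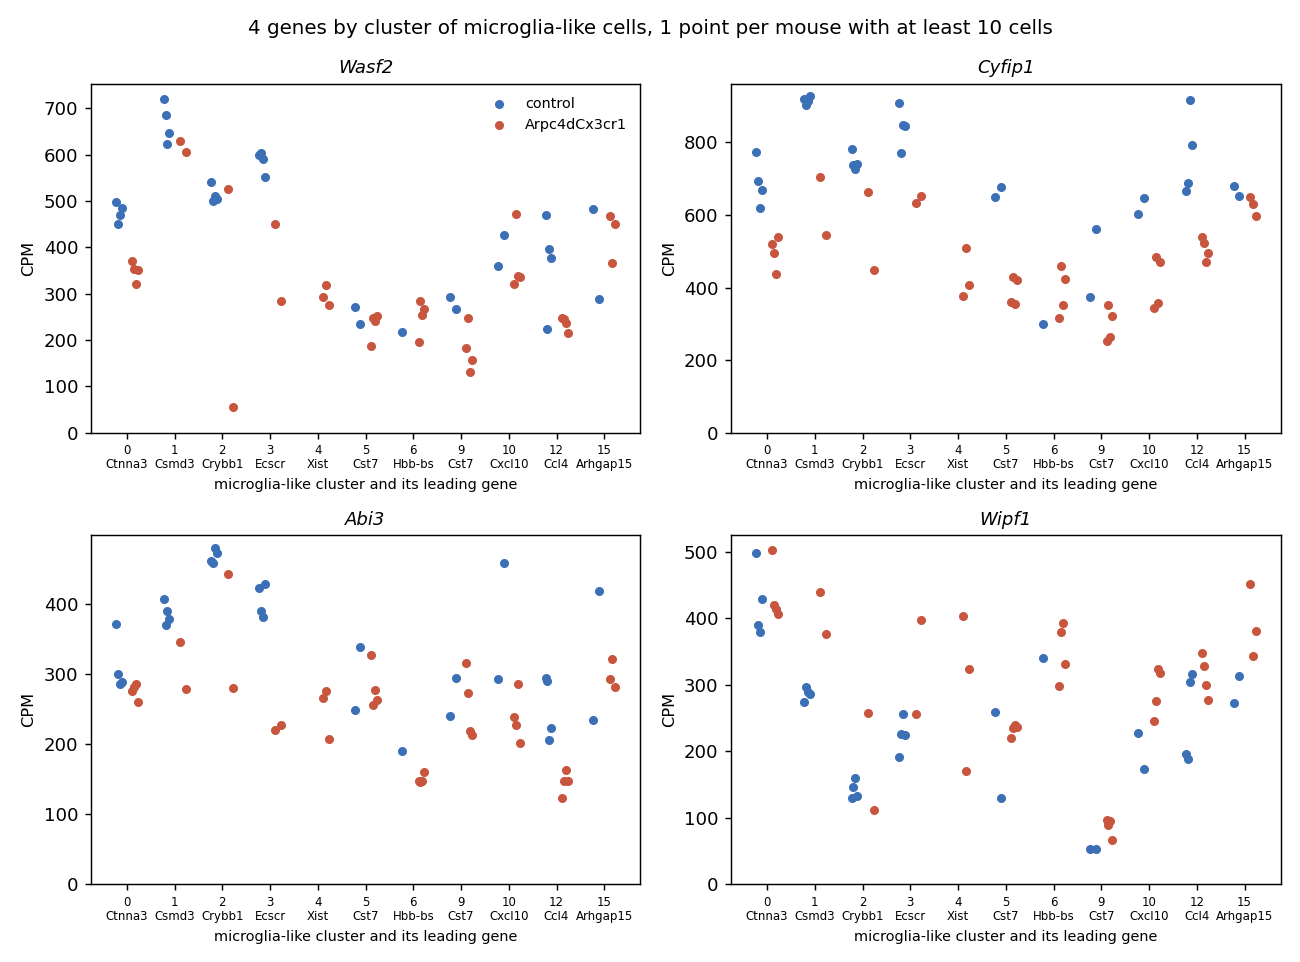
Level of Wasf2, Cyfip1, Abi3 and Wipf1 in plain CPM (vertical axis) in each microglia-like cluster (horizontal axis), 1 point per mouse and genotype with enough cells. In cluster 0 the Wasf2 and Cyfip1 points of the genotypes are separate while those of Wipf1 are mixed, and Wipf1 is low in cluster 9 (67.3 to 97.3 CPM in the knockout).

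The second comparison asked which cells of a control brain carried these transcripts. Plain CPM values per mouse are given for the levels, and tests set each cell type against the microglia-like cells of the same mice with the mouse as a block. Of the 9 genes, 6 had their highest control mean in microglia-like cells (Wipf1, Wasf2, Cyfip1, Nckap1l, Abi1 and Abi3). The same count was not made over all genes, so it has no baseline. Was was highest in T cell-like, Wasl in CAM-like and Brk1 in monocyte-like cells. When the 5 cell types were ordered by mean for each gene, 29 of 36 pairs of neighbours overlapped in their values per mouse, so that most of these orders are not fixed by the data. The plot of levels by cell type shows them for both genotypes.

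**Figure D3:**
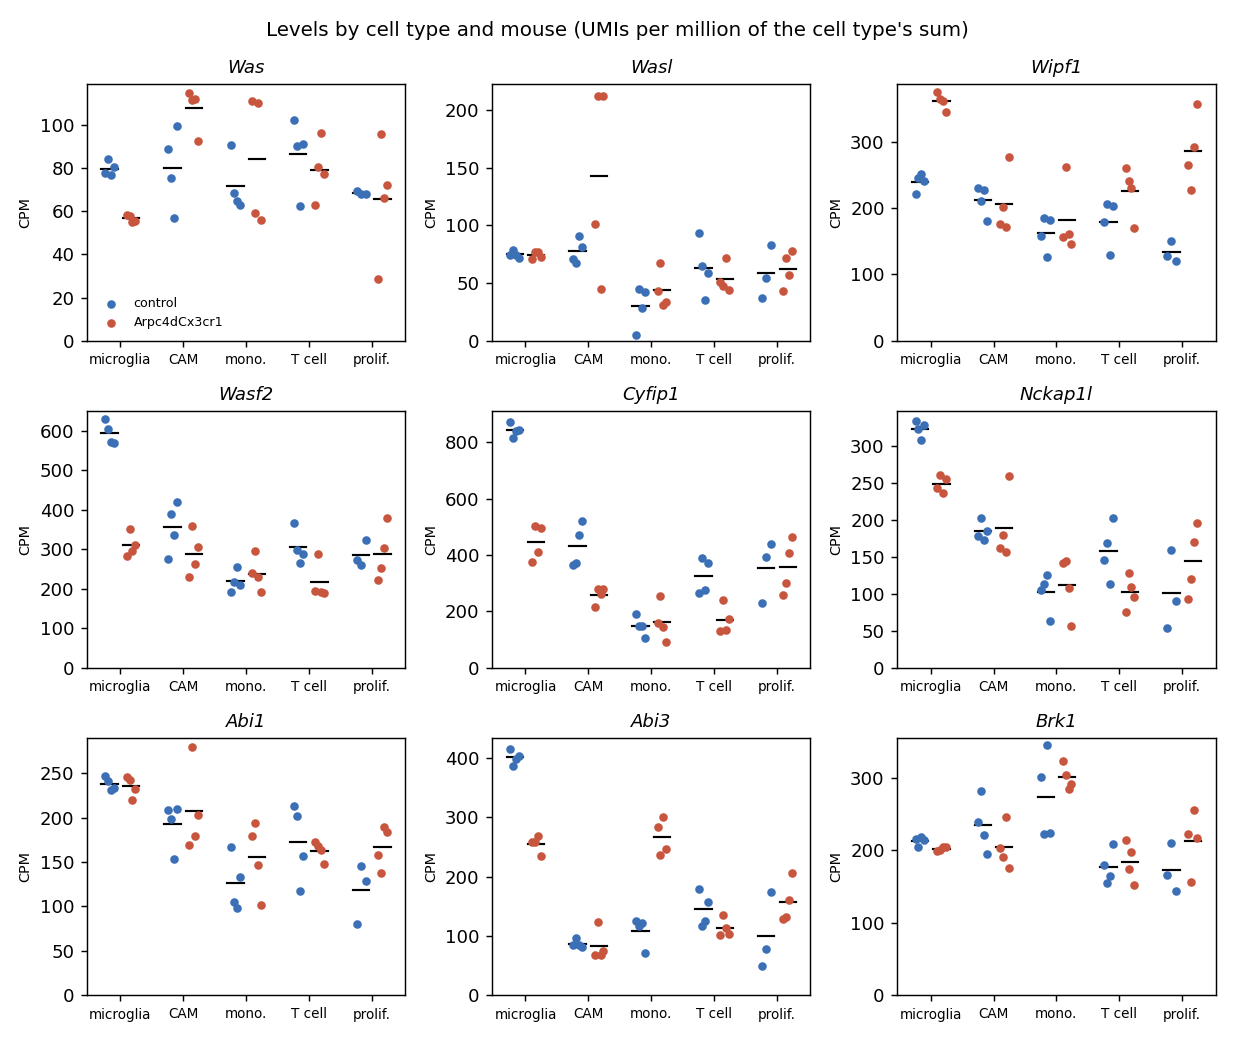
Level of each of the 9 genes in plain CPM (vertical axis) by cell type (horizontal axis), 1 point per mouse, for control and Arpc4dCx3cr1 mice. In control mice, microglia-like cells lie above the other cell types for Wasf2, Cyfip1, Nckap1l and Abi3, and Arpc4dCx3cr1 monocyte-like cells (237 to 300 CPM) lie above control ones (70.02 to 124 CPM) for Abi3.

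CAM-like cells differed from microglia-like cells of control mice in 5 of the 9 genes, with 4 lower (13.6% of 11213 genes tested were lower) and 1 higher (15.5% were higher). The gap was widest for Abi3, which stood at 84.4, 95.4, 84.4 and 81.1 CPM in CAM-like cells and at 416, 387, 399 and 404 CPM in microglia-like cells of control mice 1 to 4. Abi3 was lower by a wide margin in every mouse, with a log2 difference of -1.98 (SE 0.13, adjusted p = 3.44e-43, edgeR's quasi-likelihood test). Cyfip1 ranged from 364 to 520 CPM in CAM-like and from 814 to 872 CPM in microglia-like cells (log2 -0.71, SE 0.09), and Wasf2 (log2 -0.49) and Nckap1l (log2 -0.57) were lower too. Brk1 was higher in CAM-like cells (log2 0.36, adjusted p = 0.00526), but not past the threshold without control mouse 2 (0.25, adjusted p = 0.149, edgeR's quasi-likelihood test). For Was, Wasl, Wipf1 and Abi1 no difference passed the test between these macrophage types.

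Monocyte-like cells differed in 7 genes, with 6 lower (26.3% of 11131 genes were lower) and 1 higher (19% were higher). Cyfip1 stood at 191, 150, 146 and 105 CPM in the monocyte-like cells of control mice, against the 814 to 872 CPM of microglia-like cells. It was below microglia-like cells in all 4 mice (log2 -2.07, SE 0.17, adjusted p = 5.43e-32). Abi3 (log2 -1.43), Nckap1l (-1.20) and Wasf2 (-1.01) were lower as well, and Brk1 was higher (0.79, SE 0.16, adjusted p = 6.09e-06, edgeR's quasi-likelihood test for all). The lower values of Wasl (-0.93, adjusted p = 0.0073) and Abi1 (-0.52, adjusted p = 0.0138) each rested on single mice: Wasl did not pass without control mouse 1 (-0.48, adjusted p = 0.265, edgeR's quasi-likelihood test), nor Abi1 without control mouse 2 (-0.40) or 3 (-0.42). Neither passed once ambient RNA was subtracted.

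T cell-like cells were lower in 4 genes (16% of 11294 genes were lower) and higher in 0 with edgeR's quasi-likelihood test, also at an unadjusted p under 0.05 (16.5% of all genes were higher): Wasf2 (log2 -0.82), Cyfip1 (-1.20), Nckap1l (-0.90) and Abi3 (-1.36). Without control mouse 1, Abi1 was lower as well (-0.44). Cyfip1 stood at 265, 388, 274 and 373 CPM in the T cell-like cells of control mice. Over all cells of each type, this was above the monocyte-like cells in every mouse. The 10 microglia markers summed to between 7126 and 8237 CPM in these cells of control mice, and to between 2980 and 4960 CPM in Arpc4dCx3cr1 mice. In the 70 control T cell-like cells with at most 0.2% of their UMIs on microglia markers, a restriction added after the data were seen, Cyfip1 was at 17.2 to 77.4 CPM and 7 of the 9 genes were lower than in microglia-like cells (24.6% of 11024 genes were lower in that fit), with log2 differences of -3.94 for Cyfip1 and -3.06 for Abi3. Not all of the genes were lower there than in all T cell-like cells: Was had a control mean of 102 CPM in the restricted cells against 86.8 CPM in all, and Brk1 one of 171 against 177 CPM. Under the same restriction, control monocyte-like cells held 79.1 to 159 CPM of Cyfip1, above the restricted T cell-like cells.

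Proliferating-like cells were lower in 6 genes (13.9% of 11365 genes were lower) over 3 control mice: Abi3 (log2 -2.04), Nckap1l (-1.59), Cyfip1 (-1.20), Wasf2 (-0.95), Abi1 (-0.91) and Wipf1 (-0.73). Without control mouse 3 only 2 were lower, Nckap1l and Abi3, and without control mouse 4 Wipf1 (-0.68) did not pass. Of the 9 genes, 0 were higher with edgeR's quasi-likelihood test, with 16.1% of all genes higher and 0 of the 9 higher at an unadjusted p under 0.05. B cell-like and granulocyte-like cells were too few per mouse and were pooled, so their intervals cover counting error only. In control granulocyte-like cells Abi3 was at 37.9 CPM (95% exact Poisson interval 19.6 to 66.1, 12 UMIs in 35 cells) and Cyfip1 at 129 CPM (92.8 to 176), and in control B cell-like cells Abi3 was at 126 CPM (74.7 to 199, 18 UMIs in 43 cells) and Wasf2 at 343 CPM (254 to 453).

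RNA outside cells carried the same transcripts. In the 1769098 barcodes with at most 100 UMIs, Abi3 made up 322 CPM, Cyfip1 414 CPM and Wasf2 273 CPM, each below its mean in control microglia-like cells. Abi3 was above its mean in knockout microglia-like cells (255 CPM), as was Was (59.7 against 56.7 CPM). Brk1, at 260 CPM, was above its mean in both genotypes (213 and 202 CPM). The other genes were below their means in both genotypes. Low levels of these genes in rarer types can thus not be told apart from such RNA.

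The third comparison set Arpc4dCx3cr1 against control mice within each of the other cell types. In CAM-like cells, 0 of the 9 genes passed edgeR's quasi-likelihood test, with 2 at an unadjusted p under 0.05 (0.993% of 3324 genes tested differed). Cyfip1 stood at 364, 370, 472 and 520 CPM in control and at 217, 280, 262 and 278 CPM in Arpc4dCx3cr1 CAM-like cells. These ranges did not overlap, but the log2 difference of -0.74 did not pass adjustment (SE 0.21, adjusted p = 0.116). Wasl differed by 0.77 (adjusted p = 0.371), and Arpc4 by 0.25 (adjusted p = 0.722, edgeR's quasi-likelihood test for all). In these cells the microglia markers summed to between 6058 and 7614 CPM in controls and to between 3122 and 5578 CPM in the knockout.

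In monocyte-like cells Abi3 was higher in the knockout, the opposite of its fall in microglia-like cells. It stood at 124, 117, 122 and 70.02 CPM in control mice and at 284, 237, 300 and 247 CPM in Arpc4dCx3cr1 mice, and the groups did not overlap. Abi3 rose by 1.14 on the log2 scale (SE 0.22, adjusted p = 0.0107, edgeR's quasi-likelihood test) and was the only 1 of 8 genes tested that differed, where 5.83% of 3325 genes differed and 2.47% were higher. The value stayed between 1.00 and 1.76 in the 13 alternative settings, among them the restriction to cells with few microglia UMIs, where Abi3 was at 36.5 to 110 CPM in control and 239 to 281 CPM in knockout monocyte-like cells. Markers of several cell types moved in the same cluster. CAM markers summed to between 798 and 1139 CPM in control mice and to between 89.9 and 226 CPM in the knockout, and dendritic cell markers to between 882 and 1596 CPM and between 204 and 663 CPM. Monocyte markers summed to between 1182 and 1863 CPM in control mice and to between 1607 and 3957 CPM in the knockout, and granulocyte markers to between 65.0 and 137 CPM and between 211 and 573 CPM. The part of these markers in the Abi3 difference was not tested. Arpc4 differed by -0.02 (adjusted p = 0.991, edgeR's quasi-likelihood test).

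In T cell-like cells, 1 of 9 genes differed (3.91% of 4192 genes differed and 2.48% were lower). Cyfip1 stood at 265, 388, 274 and 373 CPM in control and at 130, 242, 134 and 174 CPM in Arpc4dCx3cr1 mice, without overlap. It fell by 0.91 on the log2 scale (SE 0.20, adjusted p = 0.00776), but without control mouse 2 it no longer passed (-0.81, adjusted p = 0.0638, edgeR's quasi-likelihood test). In T cell-like cells with few microglia UMIs the fit tested 1171 genes, of which 0% differed, and 4 of the 9 genes, Cyfip1 not among them. Cyfip1 there was at 17.2 to 77.4 CPM in controls and at 35.5 to 65.2 CPM in the knockout, and these ranges overlapped.

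In proliferating-like cells, 0 of 9 genes passed edgeR's quasi-likelihood test, with 1 at an unadjusted p under 0.05 (1.09% of 3676 genes differed). That gene was Wipf1, at 128, 150 and 121 CPM in 3 control mice and at 265, 228, 293 and 357 CPM in Arpc4dCx3cr1 mice. The ranges did not overlap, and the log2 difference was 1.04 (SE 0.31, adjusted p = 0.15, edgeR's quasi-likelihood test). In these cells the microglia markers summed to between 3003 and 10263 CPM in controls and to between 5248 and 10856 CPM in the knockout. The part of microglia in the Wipf1 difference was not tested.

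Whether the genotype effect itself differed between cell types was tested by an interaction term. Each value here is the log2 fold change in another cell type minus that in microglia-like cells. For CAM-like cells 1 of 9 genes differed (6% of 11975 genes did). Wipf1 was at 231, 211, 228 and 181 CPM in control and at 176, 202, 172 and 278 CPM in Arpc4dCx3cr1 CAM-like cells, overlapping groups, while it rose in every knockout mouse in microglia-like cells. The difference of the effects was -0.86 (SE 0.25, adjusted p = 0.0111), and without control mouse 1 or control mouse 3 it did not pass the threshold (-0.78, adjusted p = 0.0797, and -0.79, adjusted p = 0.0885, edgeR's quasi-likelihood test). Arpc4 also differed between these cell types (0.76, adjusted p = 0.0302).

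For monocyte-like cells 1 of 9 genes differed (6.73% of 12154 genes did), and this was Abi3, with a difference of effects of 1.66 (SE 0.30, adjusted p = 2.34e-06, edgeR's quasi-likelihood test). It lay between 1.51 and 2.33 in all alternative settings. Without knockout mouse 2, Wipf1 (-0.81) and Wasf2 (0.88) differed as well, and without knockout mouse 4 Wasf2 (0.91) and Cyfip1 (1.00) did. In cells with few microglia UMIs Wipf1 (-0.96), Wasf2 (0.94) and Cyfip1 (0.94) joined Abi3 (7.59% of 11915 genes differed in that fit).

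For T cell-like cells 0 of 9 genes differed with edgeR's quasi-likelihood test, with 1 at an unadjusted p under 0.05 (3.44% of 12047 genes differed). The difference of effects for Cyfip1 was -0.06 (95% interval -0.43 to 0.31), and lay between -0.16 and 0.62 in 10 alternative settings. Control T cell-like cells with few microglia UMIs held 17.2 to 77.4 CPM of Cyfip1, against 265 to 388 CPM in all of them. Whether T cells share the fall of Cyfip1 therefore cannot be told here. For proliferating-like cells 0 of 9 differed (2.06% of 12452 genes did), with 3 at an unadjusted p under 0.05, and without control mouse 4 Abi3 did (1.76). The plot of genotype effects by cell type gives the log2 fold changes in microglia-like, CAM-like, monocyte-like and T cell-like cells with their intervals. It does not show proliferating-like cells or the differences of effects.

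**Figure D4:**
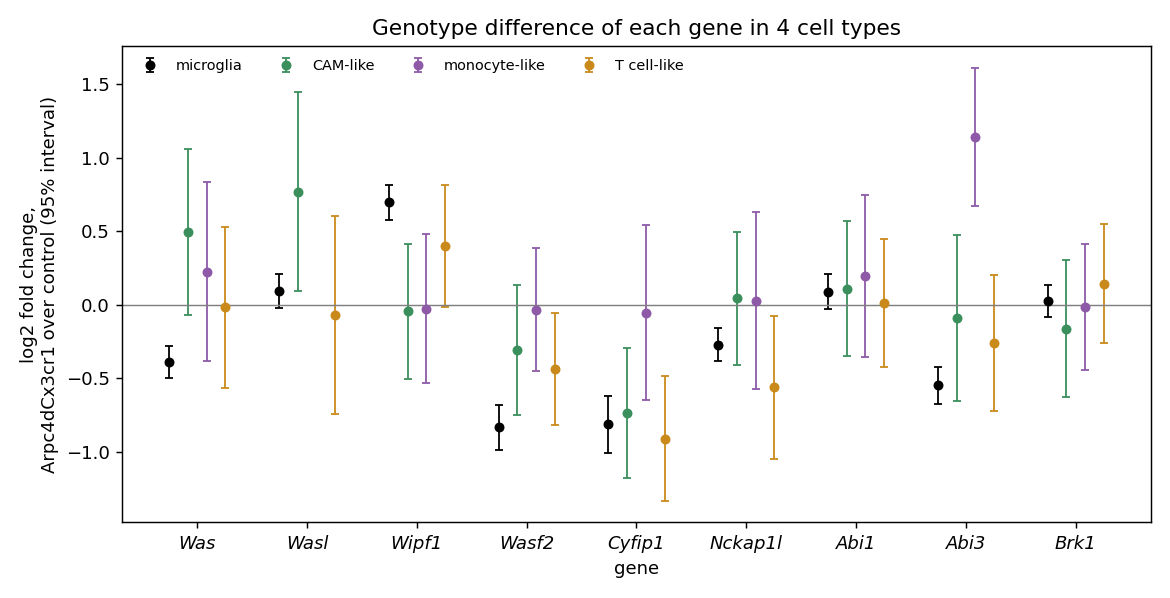
Log2 fold change of Arpc4dCx3cr1 against control mice (axis with 0 for no difference) for the 9 genes, with 95% intervals from edgeR's quasi-likelihood fit. Microglia-like, CAM-like, monocyte-like and T cell-like cells are shown, and Wasl was not tested in monocyte-like cells. Abi3 lies below 0 in microglia-like cells (-0.55) and above 0 in monocyte-like cells (1.14), and the intervals are widest in the types with few cells.

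The other genes around the Arp2/3 switch were read in microglia-like cells from 5 lists with 47 genes, of which 40 were tested, 10 were higher and 9 were lower. These shares are near those of all genes (22.9% higher and 23.2% lower), so the counts, including those by list, show nothing particular to the lists. Of the 7 paralogs of the 9 genes, 3 passed the filter on low counts and 0 of them differed with edgeR's quasi-likelihood test (Nckap1, log2 -0.22, adjusted p = 0.612, Abi2, -0.18, 0.275, and Wipf2, -0.04, 0.739, none at an unadjusted p under 0.05). Wasf1, Wasf3, Cyfip2 and Wipf3 were at 1.71 CPM or less in every mouse and were not tested. Cyfip2 passed the filter in 5 of the 8 fits without 1 mouse and was higher in the knockout in all 5 (log2 1.49 to 1.74, highest adjusted p = 0.0102, edgeR's quasi-likelihood test), from 78 UMIs over all mice. The share of Cyfip1 in the UMIs of both Cyfip genes went from 99.9% to 99.7% (exact permutation p = 0.0286, the smallest possible). Of the other nucleation-promoting factors, 2 of 8 tested were higher and 1 was lower, with a median log2 fold change of 0.07. They were Washc5 (0.43) and Washc2 (0.31), subunits of the endosomal WASH complex, and Hcls1 (-0.16, adjusted p = 0.0294), the blood-cell homologue of cortactin, which did not pass without control mouse 1 or 4 or knockout mouse 3 (adjusted p = 0.0613, 0.0866 and 0.0726, edgeR's quasi-likelihood test).

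Among upstream regulators 4 of 12 tested were higher and 4 were lower, with a median of 0.07. Rac1, which binds Cyfip1 to switch on the WAVE complex, stood at 302, 284, 287 and 286 CPM in control mice and at 238, 226, 219 and 231 CPM in Arpc4dCx3cr1 mice. All knockout mice were below all controls (log2 -0.34, adjusted p = 0.00023), and Rhog, a GTPase related to Rac, fell too (-0.30, adjusted p = 0.000727, edgeR's quasi-likelihood test for both). Pstpip1, an adaptor that binds WASP, stood at 3.03, 3.18, 2.70 and 3.85 CPM in controls and at 24.7, 10.6, 6.40 and 7.14 CPM in the knockout. Knockout mouse 1 was far above the other knockout mice, which were all above the controls, and the rise of 1.91 on the log2 scale (SE 0.44, adjusted p = 0.00448) was 1.31 without that mouse (adjusted p = 0.00017, edgeR's quasi-likelihood test). Monocyte markers summed to between 10.1 and 13.4 CPM in control and to between 14.96 and 283 CPM in Arpc4dCx3cr1 microglia-like cells, and Pstpip1 was at a mean of 92.8 CPM in control monocyte-like cells. The part of these markers in the rise of Pstpip1 was not tested. Fnbp1l, which recruits N-WASP to curved membranes, was higher by 0.55 (adjusted p = 0.000255, edgeR's quasi-likelihood test).

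Of the inhibitors and debranching factors, 2 of 8 tested were higher and 2 were lower, with a median of -0.07. Fam49a, which encodes a Rac1-binding protein of the CYRI family that restrains the WAVE complex, stood at 27.0, 24.8, 25.4 and 23.7 CPM in controls and at 35.9, 47.9, 49.7 and 45.2 CPM in the knockout. It was higher in all knockout mice (log2 0.83, adjusted p = 6.74e-05), as was Coro1c (0.89, adjusted p = 1.44e-05). Coro1a (-0.53) and Gmfb (-0.43), whose products bind or disassemble branched filaments, were lower. Of the 9 Arp2/3 subunit genes, Actr3 (0.65) and Arpc1b (0.28) were higher and Arpc4 and Arpc5l (-0.26) were lower, with a median of 0.09. In all 5 lists, then, genes moved in both directions or did not pass, as the plot of related genes shows.

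**Figure D5:**
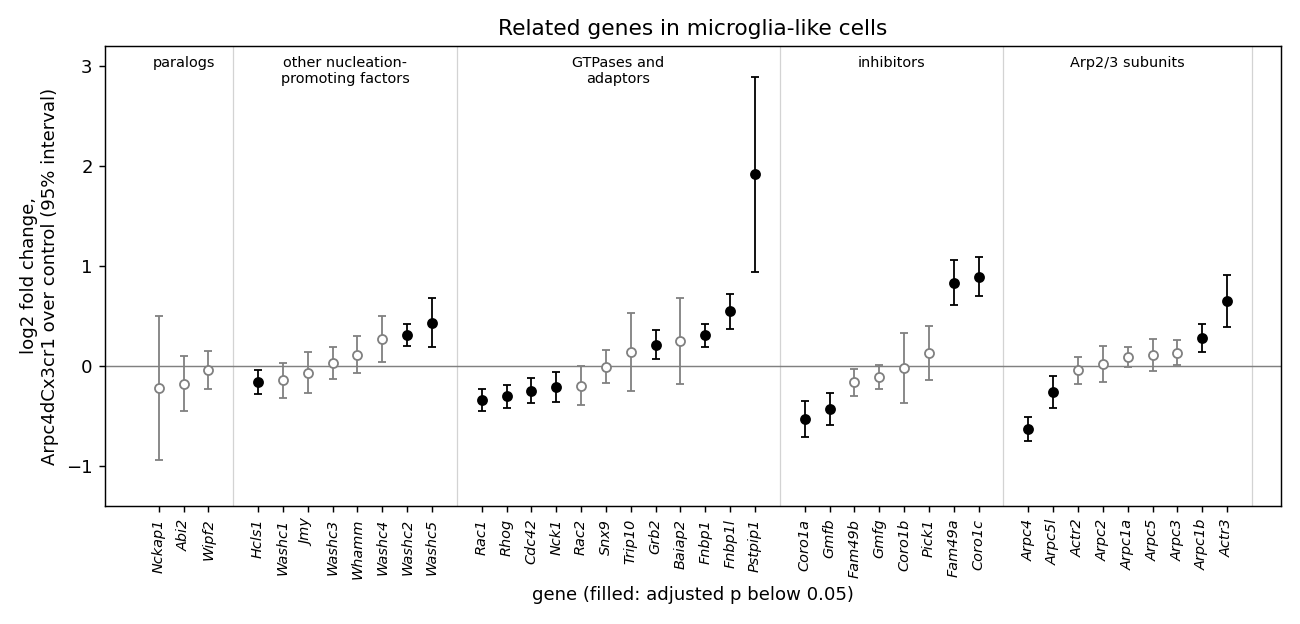
Log2 fold change of Arpc4dCx3cr1 against control microglia-like cells for the related genes, grouped by list, with 95% intervals and 0 for no difference. Every list but the paralogs spans 0, with Pstpip1 (1.91), Coro1c (0.89) and Fam49a (0.83) at the upper end and Coro1a (-0.53) and Arpc4 (-0.63) at the lower end.

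The genes whose levels were most like those of the members were found by Pearson's r over 10 points, the means of 5 cell types in each genotype, among 5837 genes. The points share 1 pool, microglia RNA present in other types and the same clustering, so r is a description. For Wasf2 these were Rhob (0.96), Bckdha (0.96) and Abhd15 (0.94), and for Nckap1l they were Mknk1 (0.98), Slc7a7 (0.97) and Picalm (0.97). For Abi3 they were Tmed5 (0.96), Cldnd1 (0.92) and Slc12a2 (0.92), and for Was they were Psenen (0.87), Fkbp1a (0.85) and Rab4b (0.84), the weakest of the 4 sets.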

How the data were processed

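Single-cell libraries from the 3′ end were made from CD45+ brain cells of 8 mice tagged with multiplexing oligonucleotides. The deposited matrices hold raw UMI counts per gene and barcode for each mouse, made by the authors with Cell Ranger (version 6.1.2 per the processing notes, 7.1.0 in the file headers) on mm10; whether introns were counted and how strand was used is not given in the sources used here. The study's ambient correction was not applied to these counts, and the study analysed fewer cells than were deposited. The pool matrix was used for empty barcodes only (at most 100 UMIs).

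The cell filter was 200 or more genes detected and a mitochondrial share of UMIs no higher than 20%. No doublet caller was run. Multiplexing oligonucleotides, 12 features, were left out of totals. Clustering used Seurat 5.3.0 in R 4.3.3 (10000 variable genes less the genes described here, 20 principal components, 20 neighbours, resolution 0.8). A cluster took the name of a type other than microglia where most markers of that type, and at least 3, exceeded the other clusters by a log2 value of 1. Of the rest, a cluster was microglia-like where at least 3 microglia markers did so against the pooled T cell, B cell, granulocyte and monocyte clusters. A cluster stayed unnamed where its median UMI count was under 1/3 of that of its samples and no marker of its type was among its leading genes. The 2 unnamed clusters held 1510 cells. Cluster 6, led by Ms4a7, had 3 microglia markers, and monocytes were added to its reference after the clusters were seen. UMI counts were summed per mouse and type (at least 10 cells per mouse, and control mouse 2 fell short for proliferating-like cells).

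The main test was edgeR 4.0.16 (quasi-likelihood, TMM, low counts filtered, Benjamini-Hochberg over all genes tested, threshold 0.05), with the mouse as block for tests between cell types of the same mice. It was tested on simulated data. DESeq2 1.42.0, other scalings, filters and clusterings, ambient subtraction at 10% and leaving out each mouse were alternatives. The exclusion of single clusters, the restriction to cells with few microglia UMIs and the test of family shares were chosen after seeing the data. The ratios within each mouse were not set out in advance. The 9 genes and the lists of related genes were chosen with earlier results of these data known. All 9 genes, Arpc4 and all paralogs are named, with, per list of related genes, the 2 largest rises and 2 largest falls past the threshold and, for 4 members, the 3 genes most like them (log2 of CPM plus 10, at least 50 CPM in 1 type). Zfp652, Gngt2, Gm13708, Nipa2 and Ttll3 were named for overlap. Coordinates are those of GENCODE genes on GRCm38, which matched all 9 genes. Each mouse is 1 replicate, and p-values measure the spread between mice processed in 1 pool. Replicate numbers were not used to pair mice.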

Additional observations from a re-analysis of the deposited data

Results flagged for a closer look

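In 2 cases the genotype effect differed between cell types by a test of the difference itself (edgeR's quasi-likelihood test, Benjamini-Hochberg adjustment over all genes). The effect on Wipf1 in CAM-like cells minus that in microglia-like cells was -0.86 on the log2 scale (adjusted p = 0.0111), lost without control mouse 1 or 3. The effect on Abi3 in monocyte-like cells minus that in microglia-like cells was 1.66 (adjusted p = 2.34e-06), kept in every alternative setting that was run. No mouse stood apart from its group by Dixon's criterion for the 9 genes and Arpc4 in microglia-like cells, over 20 groups of 4 mice, where chance gives about 1 in 20.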

How the results depend on the processing

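Over 1465 values recomputed under the alternatives, 1424 kept their direction and side of the threshold (counts stayed within 1.5 times), 14 lost and 14 gained significance, and 12 counts moved. The 5 lower and 1 higher genes in microglia-like cells did not move in number. With resolution 0.4, CAM-like cells merged with the microglia-like Ms4a7 cluster. In the merged cluster 2 genes differed by genotype, against 0 in CAM-like cells. The merged cluster held 1635 cells, and the share of all genes that differed in it was not computed. In the main clustering the Ms4a7 cluster held 1330 cells, with a mouse-weighted knockout share of 97.4%. CAM-like cells numbered 283 in control and 123 in knockout mice. The merged comparison therefore mixes cell type with genotype and does not give a genotype effect in CAM-like cells. Wipf1 changed direction, from -0.04 in CAM-like cells to 0.52 in the merged cluster (adjusted p = 0.0162, edgeR's quasi-likelihood test). In cells with few microglia UMIs, 4 genes differed in the monocyte-like interaction instead of 1, 7 instead of 4 were lower in T cell-like cells, and 0 of the 4 that could be tested instead of 1 of 9 differed by genotype in T cell-like cells. With 1 mouse left out, the CAM-like number higher than microglia was 0 to 1, the CAM-like interaction 0 to 1, the monocyte-like interaction 1 to 3, the T cell-like genotype number 0 to 1, the proliferating-like number lower than microglia 2 to 6 and the proliferating-like interaction 0 to 1. Other causes were not tested. With replicate numbers as a block in microglia-like cells, 1 gene was higher and 5 were lower as without it, 11 related genes were higher and 10 lower (10 and 9 without), and the counts in other types were 0, 1, 1 and 0. Same-numbered mice did not deviate together (correlations -0.10 to -0.01), so the numbers do not pair mice. Depth limits the rarer types: the SE of the genotype effect was 0.05 to 0.09 for the 9 genes in microglia-like cells and 0.21 to 0.32 in CAM-like cells (283 control and 123 knockout cells), so effects of the size seen for Was or Nckap1l in microglia-like cells were not detectable there.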
